A study of Mus musculus with 8 samples.

Results

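Complement is a cascade of blood and tissue proteins that marks cells and debris for removal. In the classical pathway, C1q binds its target and activates the proteases C1r and C1s, which cut C4 and C2; the fragments form an enzyme that cuts C3, the step where all pathways meet. In the alternative pathway, factor B takes the place of C2. Within tumours, macrophages are known as a main source of C1q, whereas fibroblasts, epithelial cells and macrophages can all make the later components.

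The genes described here were 9 complement components: C1qa, C1qb and C1qc (the 3 chains of C1q), C1ra and C1s (the proteases of the C1 complex), C4b and C2 (the next steps of the classical pathway), C3, and Cfb (factor B). They were taken by name from the non-control probes of the array, where C1ra is listed as C1r, and gave 13 probes of 41174. Of these, 12 probes were well above background in the tumour channel on at least 3 of 8 arrays, and every one of the 9 genes kept at least 1 such probe, among 21555 genes measured in this way.

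RNA came from mammary tumours of virgin female mice carrying MMTV-NIC, a transgene in which the MMTV promoter drives activated Neu (ErbB2) together with Cre recombinase, mainly in mammary epithelium. The 5 Stat3flx/flx/NIC samples were single tumours in which Cre can delete the floxed Stat3 gene in the cells that express it, and the 3 Stat3wt/wt/NIC samples were pools of 5 tumours with wild-type Stat3 that carry the same transgene. All tumours were taken 6 weeks after they could be felt; the labels used here give no age. The labels do not give the share of cells that lost Stat3, and macrophages and fibroblasts of the tumour lie outside the tissue that the promoter mainly drives. A pool averages its tumours, so the spread among pools is not the spread among tumours.

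Each array carried tumour RNA in Cy5 and a common mouse reference RNA in Cy3, and values are log2 ratios of tumour over reference. A ratio says how a sample compares with the reference for that gene, and it does not rank genes by abundance. Stat3 itself lay between -1.48 and -1.12 in the floxed tumours and between 0.12 and 1.27 in the pools, so that no floxed tumour reached a pool. All 10 luminal and tumour epithelium markers were measured in both groups, and their median, relative to the wild-type mean, lay between -0.20 and 0.32 in all samples. Wild-type pool 3 stood apart from the other pools: it was the highest pool for 7 of the 9 components and for the medians of the basal (1.12), acute phase (0.90) and neutrophil (0.80) gene lists, so the differences of the 9 components are also given without it. Each of the 3 slides held 1 pool: pool 3 with floxed tumours 2 and 3, pool 2 with floxed tumour 1, and pool 1 with floxed tumours 4 and 5.

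Of the 9 components, 5 had a higher and 4 a lower mean in the floxed tumours, with a median log2 difference of 0.03 against -0.01 over all genes. None passed the adjusted threshold of 0.05 in limma's test over all genes, which called 0.00464% of genes (1 gene, Dppa1, named after its value was seen). At an unadjusted p under 0.05, 1 component, C4b, was lower, while 4.97% of all genes met that rule, 3.36% lower and 1.61% higher. The groups overlapped in all 9 components, whereas they did not overlap in 3.15% of genes with a value on every array, 2.15% lower and 0.998% higher. Among all genes the mean was lower in the floxed tumours for 52.6% and higher for 47.4%.

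**Figure D1:**
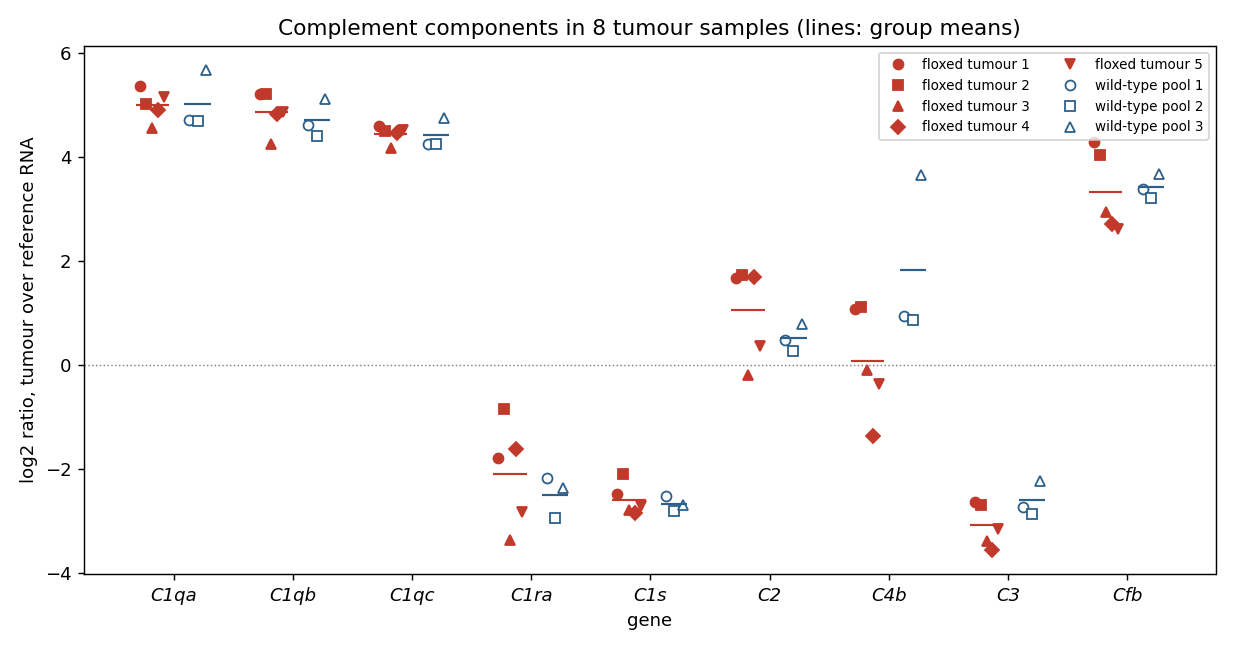
Log2 ratio of tumour over reference RNA (vertical axis) for each of the 9 components, with filled red symbols for the 5 floxed tumours, open blue symbols for the 3 wild-type pools and lines for group means. The groups overlap in every gene, and the widest range is that of C4b, from -1.37 in floxed tumour 4 to 3.65 in wild-type pool 3.

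The probes whose sequences bear on these values are shown first, as deposited, each 60 bases long and written 5′ to 3′ in the sense of the transcript, with mm7 coordinates from the array files. The C4b probe carries the largest difference between the groups, and the C1qa probe had a dim spot on 1 array. The second C1s probe, not the one that stands for the gene, is set beside the probe of C1s2, a close relative of C1s. Capitals mark the bases that differ in their best ungapped alignment.
C4b, chr17:32815561-32815620, minus strand: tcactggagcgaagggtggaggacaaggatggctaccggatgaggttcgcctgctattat
C1qa, chr4:136274931-136274990, minus strand: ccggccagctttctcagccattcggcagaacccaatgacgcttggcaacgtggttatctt
C1s, chr6:124556317-124556376, minus strand: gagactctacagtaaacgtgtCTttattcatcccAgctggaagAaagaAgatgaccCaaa
C1s2, chr6:124650521-124650580, minus strand: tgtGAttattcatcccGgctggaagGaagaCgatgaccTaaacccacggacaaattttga

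The second C1s probe and the C1s2 probe overlapped over 42 bases, of which 36 matched and 6 differed (85.7% identity). For the probe that stands for C1s, 21 of 49 bases matched the C1s2 probe (42.9% identity). Whether RNA of one gene reaches the other's probe was not tested. The Cfb probe spans 357 bases of the genome and the second C2 probe 176, more than the probe's own length, so both cross at least 1 splice junction.

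The 3 chains of C1q were far above the reference RNA in every sample, and no chain differed between the groups beyond the spread of the samples. The genes lie together on chromosome 4, with the C1qa and C1qb probes 15.9 kilobases apart from end to end. C1qa, the A chain, had log2 ratios of 5.36, 5.01, 4.56, 4.89 and 5.14 in floxed tumours 1 to 5 and 4.71, 4.69 and 5.67 in wild-type pools 1 to 3. Pool 3 was the highest sample and floxed tumour 3 the lowest, and the other pools lay within the range of the floxed tumours. The log2 difference was -0.03 ± 0.27 (SE; 95% confidence interval -0.63 to 0.58; limma adjusted p = 0.996; exact permutation p = 0.946).

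C1qb, the B chain, read 5.20, 5.21, 4.25, 4.82 and 4.86 in the floxed tumours and 4.60, 4.40 and 5.11 in the pools. Floxed tumours 1 and 2 were above every pool and floxed tumour 3 below every pool. Its log2 difference was 0.16 ± 0.25 (SE; interval -0.41 to 0.74; limma adjusted p = 0.969). For C1qc, the C chain, the ratios were 4.58, 4.50, 4.17, 4.46 and 4.51 in the floxed tumours and 4.25, 4.24 and 4.74 in the pools. C1qc had the narrowest range of the 9 components over the 8 samples, 0.57. Its log2 difference was 0.03 ± 0.17 (SE; interval -0.35 to 0.41; limma adjusted p = 0.988). Averaged over all samples, the chains stood 32.1-fold (C1qa), 28.0-fold (C1qb) and 21.6-fold (C1qc) above the reference.

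The chains followed each other from sample to sample. Over the 8 arrays, C1qa and C1qc had Pearson r = 0.97, C1qb and C1qc 0.89, and C1qa and C1qb 0.82, as a description of ratios that share arrays and slides. In each chain floxed tumour 3 was the lowest sample. Without pool 3, the differences became 0.30 for C1qa, 0.36 for C1qb and 0.20 for C1qc, so that the sign of C1qa turned. Within the slides of pools 3, 2 and 1, C1qa differed by -0.89, 0.67 and 0.31.

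The C1qa spot of pool 3 was dim in both channels. Its tumour signal was 11657 against 21603 to 58412 on the other arrays, and its reference signal was 290 against 898 to 1527. The reference RNA is the same on every array, and the C1qb and C1qc spots of pool 3 showed no such drop (reference 655 and 1425). The ratio of that spot was the highest of all, while its tumour signal was the lowest. The group difference of C1qa was 0.68 in the tumour channel alone, against -0.03 for the ratio. The cause of the dim spot was not tested.

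**Figure D2:**
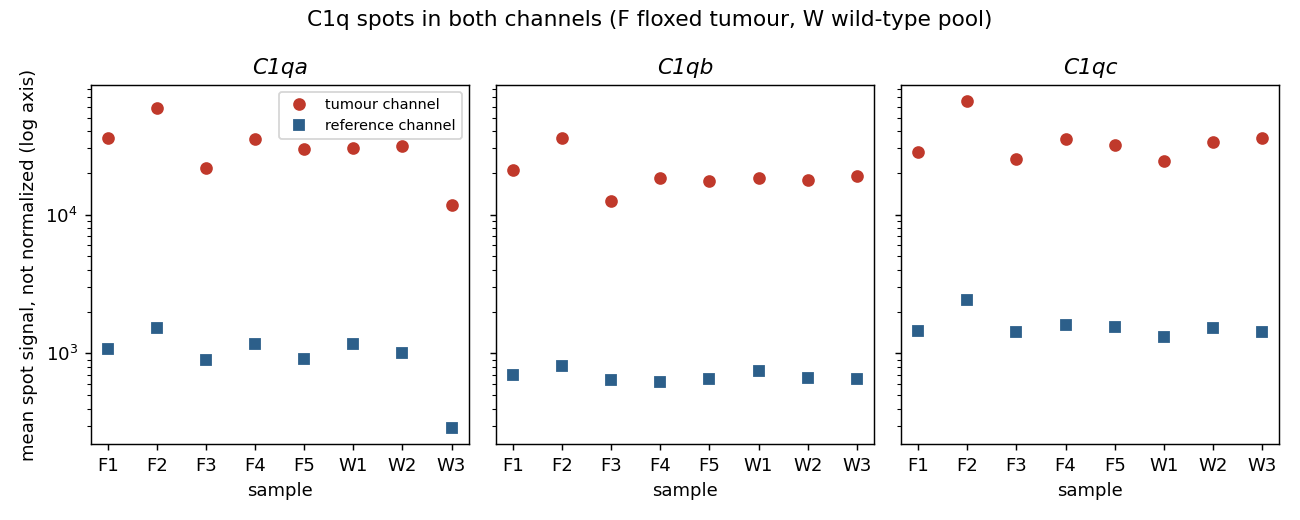
Mean signal of the C1qa, C1qb and C1qc spots before normalization (vertical log axis) in the tumour channel (red circles) and the reference channel (blue squares) for floxed tumours F1 to F5 and wild-type pools W1 to W3. Only the C1qa spot of W3 falls in both channels, to 11657 and 290.

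No macrophage marker passed the adjusted threshold. All 15 listed markers were measured, 12 with a higher and 3 with a lower mean in the floxed tumours. Among all genes 47.4% had a higher mean. At an unadjusted p under 0.05, 1 marker was lower and none was higher, where 3.36% of all genes were lower and 1.61% higher. Relative to the wild-type mean, the median of the list was 0.18, 0.86, -0.64, 0.07 and 0.19 in floxed tumours 1 to 5 and 0.06, -0.28 and 0.25 in the pools. Floxed tumour 3 was thus the lowest sample for this list, as it was for each C1q chain. Floxed tumour 2 was the highest for the list and for C1qb, but not for C1qa or C1qc. The endothelial list, with 7 markers, was likewise low in floxed tumour 3 and high in pool 3, though pool 2 was its lowest sample. Its median was 0.39, 0.54, -0.31, -0.12 and 0.19 in floxed tumours 1 to 5. In pools 1 to 3 it was -0.08, -0.44 and 0.46. Whether the number of macrophages or of endothelial cells plays a part was not tested. In bulk tumour RNA, fewer cells of a type cannot be told apart from less RNA per cell.

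C1r and C1s, which C1q activates in turn, were below the reference RNA in every sample, 4.73-fold for C1ra and 6.13-fold for C1s on average. C1ra had ratios of -1.79, -0.85, -3.37, -1.61 and -2.83 in the floxed tumours and -2.17, -2.94 and -2.37 in the pools. Floxed tumours 1, 2 and 4 were above every pool and floxed tumour 3 was below every pool, so the floxed tumours lay on both sides. The log2 difference was 0.40 ± 0.52 (SE; interval -0.78 to 1.58; limma adjusted p = 0.959; exact permutation p = 0.536).

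The standard deviation of C1ra among the floxed tumours, 1.00, was larger than that of 97.0% of all genes. A second probe, 5789 bases away, is named C1r on the array but described there as the gene copy C1rb, and it was counted under C1ra by its name. It gave a like pattern, with r = 0.94 between the probes over the 8 arrays and a difference of 0.54 ± 0.40 (SE). RNA of C1ra and C1rb cannot be told apart here, and C1rb has no entry of its own below. Without pool 3 the C1ra difference was 0.46, without floxed tumour 2 it was 0.093, and without floxed tumour 3 it was 0.72.

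C1s read -2.48, -2.09, -2.79, -2.85 and -2.71 in the floxed tumours and -2.52, -2.80 and -2.69 in the pools. Floxed tumour 2 stood above the rest, and the difference was 0.08 ± 0.19 (SE; interval -0.36 to 0.53; limma adjusted p = 0.982). Without pool 3 it was 0.076. Its second probe, printed above, differed by 0.11 ± 0.28 (SE). The relative C1s2 differed by 0.20 ± 0.26 (SE; limma adjusted p = 0.958), with its highest ratio in floxed tumour 1 rather than 2.

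Fibroblast markers were highest in the same tumour as C1s and C1ra. The median of the 11 fibroblast markers was 1.65 in floxed tumour 2, and from -0.51 to 0.38 in the other floxed tumours and from -0.22 to 0.30 in the pools. In floxed tumour 4, however, C1ra was 0.88 above the wild-type mean while the fibroblast median was -0.51. The part of fibroblast content in these values was not tested.

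C4b carried the largest difference of the 9, and it rested largely on 1 pool. C4b encodes complement C4, which C1s cuts. Its log2 ratios were 1.08, 1.11, -0.10, -1.37 and -0.37 in floxed tumours 1 to 5 and 0.95, 0.86 and 3.65 in pools 1 to 3. Pool 3 was far above every other sample, pools 1 and 2 lay below floxed tumours 1 and 2, and floxed tumours 3, 4 and 5 were the lowest samples. The mean was 3.36-fold lower in the floxed tumours (log2 difference -1.75 ± 0.76, SE; interval -3.46 to -0.04), with an unadjusted limma p of 0.0463, an adjusted p of 0.942 and an exact permutation p of 0.125.

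Without pool 3, the C4b difference was -0.84 (limma unadjusted p = 0.23, adjusted p = 1.00). Within the slides of pools 3, 2 and 1 it was -3.14, 0.22 and -1.82. With slide as a fixed block it was -1.74 ± 0.61 (SE), with a limma unadjusted p of 0.0245 and an adjusted p of 0.716. With slide as a random block it was -1.75 (limma unadjusted p = 0.0551). The tumour signal of the C4b spot was 31697 in pool 3 and 958 to 5908 elsewhere, while the reference signal stayed between 2370 and 2697 on all arrays, so the high ratio of pool 3 came from its tumour channel. Floxed tumour 4 had the lowest signal. The probe of the related gene C4a did not pass the background test on a single array, and whether C4a RNA reaches the C4b probe was not tested.

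C2, cut by C1s after C4, was higher in 3 floxed tumours than in any pool. Its ratios were 1.66, 1.73, -0.19, 1.68 and 0.37 in the floxed tumours and 0.47, 0.27 and 0.80 in the pools. Floxed tumours 1, 2 and 4 lay together near 1.7, floxed tumour 3 was the lowest sample, and floxed tumour 5 fell among the pools. The log2 difference was 0.54 ± 0.46 (SE; interval -0.51 to 1.59; limma adjusted p = 0.942; exact permutation p = 0.393).

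A second C2 probe, in a different part of the transcript, showed the same tumours high (1.51, 1.68 and 1.63 in floxed tumours 1, 2 and 4) and a difference of 0.71 ± 0.41 (SE), with r = 0.98 between the probes. Without pool 3 the C2 difference was 0.68, and without floxed tumour 3 it was 0.85 (limma unadjusted p = 0.0409, adjusted p = 0.999). The standard deviation of C2 among floxed tumours, 0.90, exceeded that of 96.0% of genes, against 0.27 among the pools. C1ra and C2 were also the closest pair of components outside the C1q chains after C3 with C4b, with r = 0.93 over the 8 arrays.

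C3, the component on which all pathways converge, was below the reference in every sample, and its floxed mean was lower without passing the test. Its ratios were -2.63, -2.69, -3.37, -3.56 and -3.15 in the floxed tumours and -2.73, -2.86 and -2.22 in the pools. Floxed tumours 3, 4 and 5 were below every pool, whereas floxed tumours 1 and 2 lay between pools. The log2 difference was -0.48 ± 0.26 (SE; interval -1.06 to 0.10; unadjusted limma p = 0.0958, adjusted p = 0.942; exact permutation p = 0.179), and -0.29 without pool 3. Without floxed tumour 1 it was -0.59 (limma unadjusted p = 0.0444, adjusted p = 0.795).

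The C3 probe was printed 10 times on each array, and the standard deviation of its log2 ratio among those spots was 0.04 to 0.10, against 0.41 among the floxed tumours and 0.33 among the pools. A second C3 probe, 20955 bases away, was well above background only in floxed tumours 2 and 3, so it has only a bound in the others and was not tested.

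C3 and C4b followed each other over the samples (r = 0.95 over the 8 arrays), with the same 3 floxed tumours lowest and pool 3 highest in both. Acute phase genes, a list of secreted and signalling proteins that includes Saa1, Hp and Lcn2, showed a similar split: 9 of its 10 members had a lower mean in the floxed tumours, 5 of them at an unadjusted p under 0.05 and none past the adjusted threshold, where 52.6% of all genes had a lower mean and 3.36% were lower at that p. The list median was -0.85 and -0.61 in floxed tumours 1 and 2, -1.88, -2.11 and -2.20 in floxed tumours 3, 4 and 5, and -0.57, -0.51 and 0.90 in pools 1 to 3. Without pool 3 its median difference went from -1.37 to -0.35. In the neutrophil list (3 of 6 genes measured) and the basal list (6 genes), pool 3 was highest and floxed tumours 3, 4 and 5 were lowest. The neutrophil medians were -1.97, -1.50 and -1.69 in those tumours, and -0.87 and 0.49 in floxed tumours 1 and 2. In pools 1 to 3 they were -0.30, -0.51 and 0.80. The basal medians of floxed tumours 3, 4 and 5 were -0.69, -0.88 and -0.79. Floxed tumour 1 (-0.56) and pool 2 (-0.60) lay close to them, so the basal list had no clear gap there. Floxed tumour 2 was at 0.07, and pools 1 and 3 were at -0.45 and 1.12. Whether the samples' other cells play a part in these values was not tested.

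Cfb, the alternative pathway's counterpart of C2, was above the reference in every sample, 10.2-fold on average. Its ratios were 4.29, 4.03, 2.94, 2.70 and 2.61 in the floxed tumours and 3.37, 3.21 and 3.68 in the pools. Floxed tumours 1 and 2 were above every pool and floxed tumours 3, 4 and 5 below every pool, so the means nearly cancelled at a difference of -0.10 ± 0.41 (SE; interval -1.03 to 0.82; limma adjusted p = 0.983; exact permutation p = 0.857). Its standard deviation among floxed tumours, 0.79, exceeded that of 94.2% of genes. Without pool 3 the difference was 0.02.

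Cfb and C2 are neighbours on chromosome 17, with probes spanning 6.8 kilobases in all, and C4b lies 144 kilobases from C2 in the same region by the probes' positions. They did not share one pattern over the tumours. Floxed tumour 4 was among the highest samples for C2 and among the lowest for Cfb, and the correlation of C2 with Cfb over the 8 arrays was 0.52. C2 with C4b had r = -0.01, and Cfb with C4b 0.64.

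**Figure D3:**
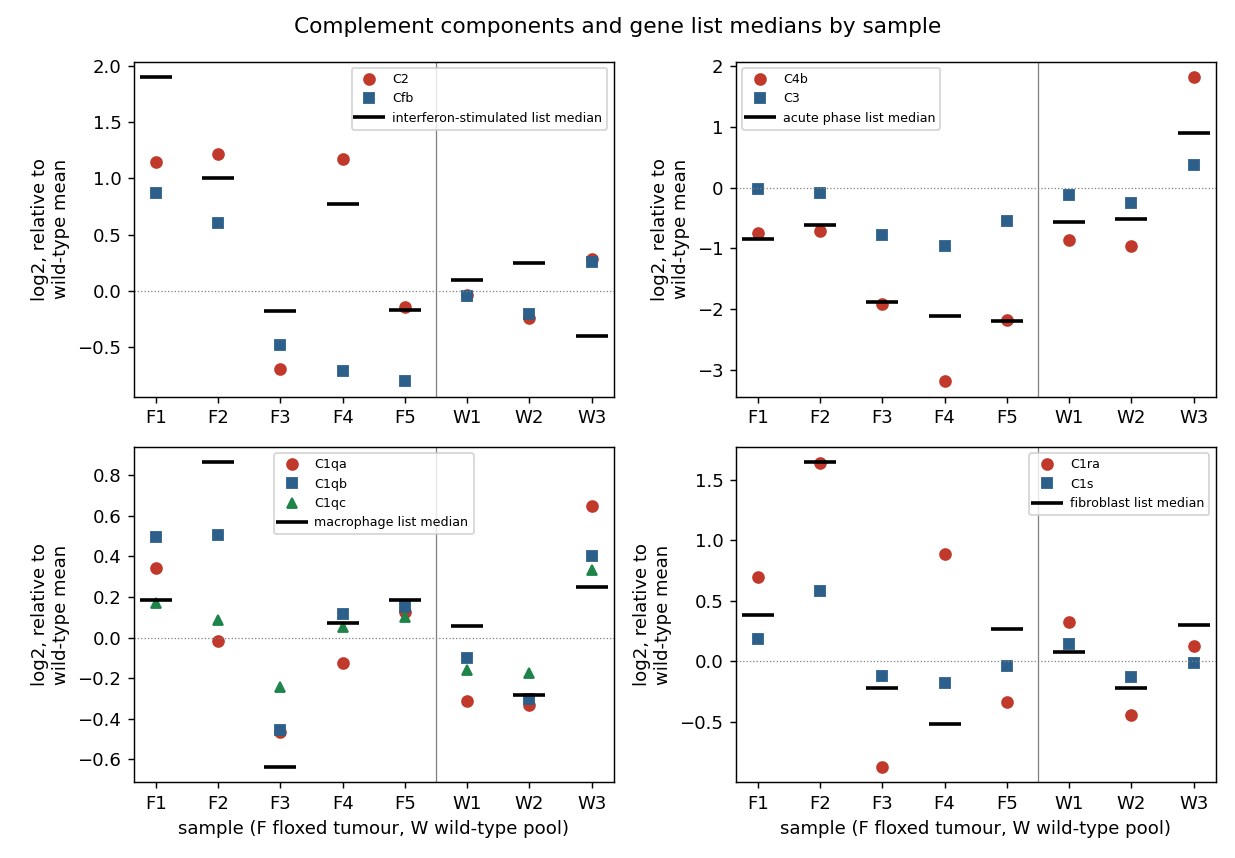
Values relative to the wild-type mean (vertical axes, log2) by sample, F1 to F5 floxed tumours and W1 to W3 wild-type pools, for components (coloured symbols) with the median of a gene list (black bars). C2 is high in F1, F2 and F4 as the interferon-stimulated list is, C4b and C3 are lowest in F3 to F5 as the acute phase list is, and the fibroblast median reaches 1.65 in F2.

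Interferon-stimulated genes, such as Irf7 and Isg15, ran high in the same floxed tumours as C2. Of 20 listed genes, 19 had a higher mean in the floxed tumours, 2 at an unadjusted p under 0.05 and none past the adjusted threshold, where 47.4% of all genes had a higher mean and 1.61% were higher at that p. Their median was 1.91, 1.00 and 0.77 in floxed tumours 1, 2 and 4, and -0.18 and -0.17 in floxed tumours 3 and 5. In pools 1 to 3 it was 0.10, 0.25 and -0.40, so pool 3 was the lowest sample for this list. Cfb was high in floxed tumours 1 and 2 but low in floxed tumour 4. Of the remaining lists, none of the 5 hepatocyte genes was measured, and the medians of the T cell list lay between -0.13 and 0.34 in all samples.

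Other genes of the pathway were taken from a list of 49, of which 47 were on the array and 36 measured. In the floxed tumours 25 had a lower and 11 a higher mean, with a median difference of -0.13; over all genes 52.6% were lower. None passed the adjusted threshold, 1 was higher and 3 lower at an unadjusted p under 0.05, and the groups did not overlap in 1. Among all genes, 1.61% were higher and 3.36% lower at that p. The groups did not overlap in 3.15% of genes with a value on every array. Without pool 3 the split was 15 lower and 21 higher, with a median of 0.02, where 47.0% of all genes were lower. By role, 6 of 9 classical and lectin genes, 2 of 3 alternative, 3 of 3 terminal, 5 of 6 fluid regulators, 6 of 6 membrane regulators and 3 of 9 receptors were lower. Without pool 3 these counts were 4 of 9, 1 of 3, 3 of 3, 0 of 6, 6 of 6 and 1 of 9. For membrane regulators the count was 5 of 6 without floxed tumour 3 and also without pool 1.

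**Figure D4:**
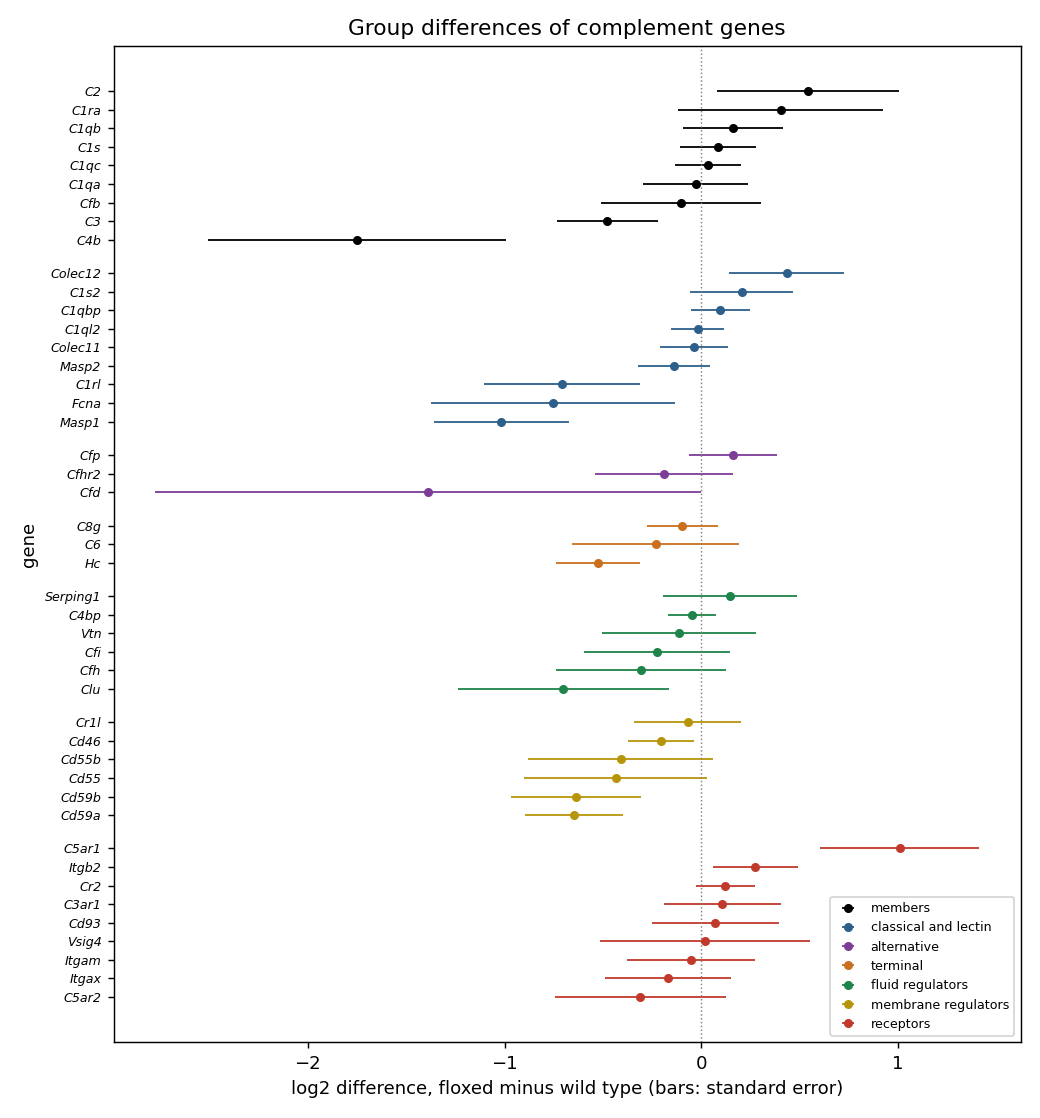
Log2 difference, floxed minus wild type (horizontal axis), with its standard error, for the 9 components and for 36 other complement genes coloured by role. C4b and Cfd lie farthest below 0 and C5ar1 farthest above, with bars of differing width.

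C5ar1, the main receptor for the fragment C5a, had the largest positive difference of the list. Its log2 ratios were -0.71, 0.52, -0.61, -0.12 and 0.14 in the floxed tumours and -1.13, -0.32 and -2.04 in the pools. Pool 2 was higher than floxed tumours 1 and 3, so the groups overlapped, and the difference was 1.01 ± 0.40 (SE; limma unadjusted p = 0.0342, adjusted p = 0.942); it was 0.57 without pool 3. Colec12, a collectin receptor (0.43 ± 0.29), and Itgb2, the beta chain of the complement receptors CR3 and CR4 (0.27 ± 0.22), came next; without floxed tumour 2 they were 0.22 and 0.14.

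Cfd, the protease factor D that cuts factor B and is abundant in fat, had the largest negative difference, -1.39 ± 1.39 (SE). It was not well above background in floxed tumour 4, whose value is only a bound. Its ratio was 6.37, 4.19, 2.75, -0.22 and 0.63 in the floxed tumours and 5.29, 4.45 and 2.66 in the pools, so floxed tumour 1 was the highest sample and floxed tumours 4 and 5 the lowest. The difference was -2.29 without floxed tumour 1, -2.12 without pool 3, -0.65 without floxed tumour 4, -0.86 without floxed tumour 5 and -0.81 without pool 1. The median of the adipocyte list ran from -1.54 in floxed tumour 4 to 2.20 in floxed tumour 1, and its part in the values of Cfd was not tested.

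Masp1, a protease of the lectin pathway, followed at -1.02 ± 0.34 (SE; limma unadjusted p = 0.0162, adjusted p = 0.942). Its ratios were -2.56, -2.58, -2.75, -2.86 and -2.88 in the floxed tumours and -1.38, -2.75 and -0.998 in the pools, with pool 2 among the floxed tumours. The difference was -0.66 without pool 3 and -1.54 without pool 2 (limma adjusted p = 0.17). The other kept probes of Masp1 differed by -0.60 and -0.23. These probes were well above background on only 3 and 4 arrays, in that order. On the remaining arrays their ratios are only bounds, so they cannot check the size of the Masp1 difference. The mean of the kept probes of Masp1, which includes them, differed by -0.61. Fcna, which encodes ficolin A, came next at -0.75 ± 0.62 (SE), with -1.27 without floxed tumour 1 (limma unadjusted p = 0.0018, adjusted p = 0.795) and -0.47 without floxed tumour 4. Hc, the gene of complement C5, and Cd59a, which blocks the membrane attack complex, were singled out after their values were seen. The groups did not overlap for Hc (as for 2.15% of all genes in this direction), which had a difference of -0.53 ± 0.21 (SE; limma unadjusted p = 0.036) and lay between -0.29 and 0.37 in the floxed tumours and between 0.39 and 1.09 in the pools. It was -0.17 in the tumour channel alone (limma unadjusted p = 0.44) and -0.34 without pool 3. Cd59a differed by -0.65 ± 0.25 (SE; limma unadjusted p = 0.0288), its second probe by -0.61, and without pool 3 it was -0.43.

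Genes with the pattern most like each component were sought among 21443 genes by Pearson r over the 8 arrays, as a description. For the C1q chains these were Robo4, D130060J10Rik and Rasgrp3 with C1qa (r from 0.96 to 0.97), St8sia4, Igfbp7 and Sox18 with C1qb (0.97 to 0.98), and Cd93, Kcne3 and Tmem204 with C1qc (0.96 to 0.98). C1ra was closest to AK012436, Gzmc and Adam9 (0.95 to 0.97), C1s to Nfatc4, Col2a1 and Snx20 (0.96 to 0.98), and C2 to Chst9, Casp1 and Hspbp1 (0.96 to 0.97).

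C3 was closest to Nxpe5, Paf1 and Tnfrsf21 (0.96 to 0.98), C4b to 9230112J17Rik, AI838057 and Tmed10 (0.98 to 0.99), and Cfb to Ptar1, 4930527J03Rik and Gabrp (0.97 to 0.99). Spearman's rho for these pairs lay between 0.76 and 1.00. Pool 3 had the highest ratio in C4b and in each of its 3 genes.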

How the data were processed

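Per the file headers, Agilent Feature Extraction 9.5.3.1 (protocol GE2-v5_95_Feb07, mouse build mm7) wrote the deposited intensity of each spot, not normalized, its processed intensity, and a log10 ratio of Cy5 over Cy3 that served only to check the direction. Values on a log2 scale for the same arrays are in the authors' deposited table (r with each array's own log2 ratio 0.990 to 0.994; column medians 0.0028 to 0.0116). The submitters' processing notes name Feature Extraction and RMA; how it was normalized and centred is unknown, and it was used only for comparison.

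With limma 3.58.1 (R 4.3.3), normexp (offset 50) corrected the background and loess, run array by array, normalized the ratios; outlier spots were dropped and spots of 1 probe averaged. Probes well above background in the tumour channel on at least 3 of 8 arrays were kept, and the brightest kept probe stood for its gene. Limma's linear model with moderated statistics, two-sided and Benjamini-Hochberg adjusted over all genes at 0.05, compared the groups; it was also tested on simulated data. The exact permutation test enumerated 56 splits, so its smallest p is 0.0179. Gene symbols came from RefSeq accessions for 22951 probes, identical symbols for 6659 and the file for 11564. Median tumour signals were 642 to 891 against backgrounds of 47 to 58, and precision is limited by how many arrays there are. The p-values reflect only how these samples vary.

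The components and lists were chosen with earlier results of these data known. All components were named; other complement genes were named as the 3 largest positive and 3 largest negative differences, and look-alike genes as the 3 highest r. Floxed tumour numbers are names only.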

Additional observations from a re-analysis of the deposited data

How the results depend on the processing

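Over 180 values of the 9 components under alternative settings with a test, none passed the adjusted threshold and 14 had the opposite sign. All 14 were in C1qa, C1qc, C1s and Cfb, whose differences are near 0. Values within single slides are not among the 180 and are given below. C1qa became 0.0073 with no background correction and 0.68 in the tumour channel alone. With median centring in place of loess, C1qc became -0.041 and C1s -0.037, and 624 genes had an unadjusted p under 0.05 against 1072. Cfb became 0.033 in the authors' deposited table. The probe standing for each of these genes has the same values, while the second C1s probe stayed at 0.061 with median centring. Leaving out 1 sample in turn gave -0.19 to 0.30 for C1qa, 0.012 (without pool 2) to 0.36 (without pool 3) for C1qb, -0.053 to 0.20 for C1qc, -0.040 to 0.16 for C1s (-0.056 to 0.23 for its second probe), -0.35 to 0.071 for Cfb, 0.093 to 0.72 for C1ra, 0.37 to 0.85 for C2, -0.60 to -0.29 for C3 and -2.23 to -0.84 for C4b. It also gave 0 to 2 components and 475 to 1894 genes at an unadjusted p under 0.05, and 0 to 2 genes past the adjusted threshold; the lowest of the gene counts came without pool 3 (475) and the highest without pool 2 (1894).

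The 1 component at an unadjusted p under 0.05 became 0 with no filter on dim probes, with slide as a random block and in the authors' table. The 1 gene past the adjusted threshold became 0 with processed signals, no background correction, the tumour channel alone, either other filter, slide as a fixed block, trended robust variances and the authors' table. Scaling between arrays after loess leaves ratios as they are.

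Within single slides, for which values only were computed, some moved beyond the spread. On the slide of pool 3 they were -0.89 (C1qa), -0.38 (C1qb), -0.41 (C1qc), -3.14 (C4b) and -0.53 (median of other complement genes). On that of pool 2 they were 0.67 (C1qa), 0.80 (C1qb), 0.34 (C1qc), 1.40 (C2), 0.23 (C3), 0.22 (C4b), 1.08 (Cfb) and 0.32 (median of other complement genes). On that of pool 1, C1s was -0.26. Outside C1qa, C1qc, C1s and Cfb, the sign turned for C1qb on the slide of pool 3, and for C3 and C4b on that of pool 2. It also turned, within the spread, for C2 on the slide of pool 3 (-0.023) and for C1ra on that of pool 1 (-0.049). The cause of these changes was not tested. No paired analysis was possible because the numbers of the floxed tumours are names in accession order.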

Other observations

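A probe named AA733629, on the strand opposite to C3 at chr17:55414616-55414675 (mm7), overlaps the 10-spot C3 probe by 11 bases and was well above background on 5 of 8 arrays. Its log2 ratios were -0.18, -0.43, -0.37, -0.54 and -0.34 in floxed tumours 1 to 5 and -0.38, -0.37 and -0.22 in pools 1 to 3. On the other arrays its ratio is only a bound, and it was not compared with C3.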
